A study of Brachypodium distachyon with 8 samples.

Results

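Small RNAs at 3' UTRs were compared between leaves of Brachypodium distachyon that had been immersed in water at 42 °C for 3 h and leaves immersed for 1 h. Brachypodium is a small grass used as a model for cereals, and all plants were of the diploid inbred line Bd21, otherwise grown at 22 °C. The comparison covers every transcript identifier, called a locus here, whose reads in both libraries add up to 40 or more. That gave 6934 loci from 4865 genes, of 30815 loci listed in the 8 libraries of the series. They held 94.9% of the 3' UTR reads at 3 h and 96.5% at 1 h. The other 6 libraries, used here for context, came from heat in air at 42 °C (3 h and 1 h), cold at 4 °C (24 h and 6 h), soil soaked with 300 mM NaCl (48 h) and unstressed plants. Each condition had 1 library and the number of plants behind a library is not given in the sources used here, so every difference below is between 2 libraries, has no replicate check and carries no p-value.

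Plants make small RNAs by cutting double-stranded RNA with Dicer-like enzymes and load them into Argonaute proteins, which use them to find matching RNA or DNA. In plants in general, 21 nt species include most microRNAs and trans-acting siRNAs, 22 nt species can start the production of secondary siRNAs, and 24 nt species guide DNA methylation. Fragments of longer RNAs are also sequenced in such libraries. The counts do not tell these sources apart, and the files give neither sequence nor strand. They do not pair identifiers with names either. None of the 24118 genes in the files matched the RefSeq table (0 of 24118), so loci are described by identifier, read count and read length, and gene functions are not given.

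The deposited 3' UTR reads numbered 3461750 at 3 h and 1942169 at 1 h. Reads were listed at 25874 loci at 3 h and at 20883 loci at 1 h, with 19853 loci in common. At the read total of the 1 h library, 24749 loci would be expected at 3 h. The 10 most abundant loci of each library held 65.9% of reads at 3 h and 72.0% at 1 h. The median member had 56.0 reads at 3 h and 26.0 at 1 h. At the edge of the rule, the 130 loci with exactly 40 summed reads had medians of 30 reads at 3 h and 10.0 at 1 h, and the 143 loci with 39 summed reads, just outside, had 28.0 and 11.

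A trimmed mean of the log ratios at these loci served for scaling and set the 3 h library at 2.22 times the size of the 1 h library, against 1.78 times by total reads. Scaled reads are counts divided by that factor, so the values at 1 h are the counts themselves. A locus was called higher or lower at 3 h when the exact 95% interval of its fold, which covers counting error only, lay wholly beyond 2-fold. On this scale 267 loci of 184 genes were higher at 3 h (3.85% of 6934) and 273 loci of 194 genes were lower (3.94%), 7.79% in all. The remaining loci were mostly close to the scaling line. The fold estimate lay within 2-fold for 5317 loci (76.7%), and the interval included no change for 4238 (61.1%). The log2 fold had a median of -0.01, with 5% of loci below -1.43 and 5% above 1.66. Calls became more frequent with depth. Among loci with 40 to 99 summed reads, 2.59% were higher and 2.17% lower, while among the 79 loci with 1600 or more, 20.3% were higher and 13.9% lower. The higher loci, outside the 9 with no reads at 1 h, had a median fold of 5.49 and the lower loci a median fold of 4.31. Under total scaling every log2 fold is larger by 0.32, and 434 loci were higher and 181 lower. With the trimmed mean taken over 24 nt reads alone, 405 were higher and 199 lower, so the even split of the calls rests on the scaling.

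**Figure D1:**
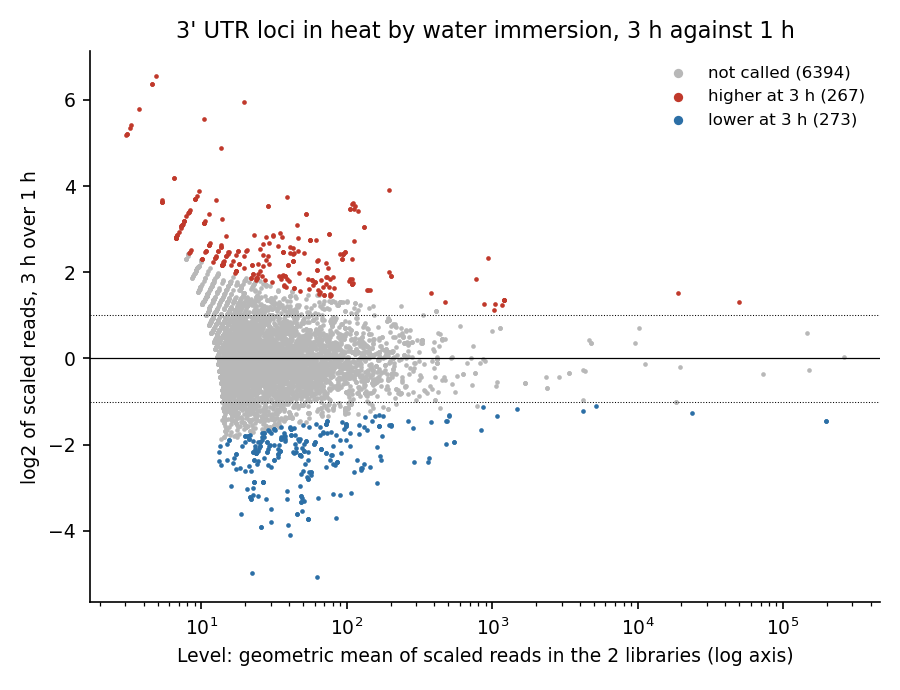
Each point is 1 of the 6934 loci. The horizontal axis is the geometric mean of scaled reads in the 2 libraries (log axis, 0.5 added), the vertical axis the log2 ratio of scaled reads at 3 h over 1 h, and dotted lines mark 2-fold. The 267 loci called higher and the 273 called lower lie on both sides of a dense band around 0.

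The most extreme loci changed through 1 read length. Bradi2g42650.1 had 346 reads at 3 h and 2 at 1 h, 77.9-fold higher (95% interval 21.4 to 646), and 340 of the 346 reads were 15 nt long. Bradi5g05090.1 had 157 reads at 3 h and 1 at 1 h, 70.7-fold higher (12.5 to 2810), of which 151 were 15 nt long. In scaled reads Bradi2g42650.1 stood at 156 at 3 h and 2.00 at 1 h in water, 53.5 and 190 in air, and 2.68 to 53.9 in the other 4 libraries. Bradi5g05090.1 stood at 70.7 at 3 h and 1.00 at 1 h in water, 21 and 50.1 in air, and 6.22 to 59.5 in the others. The 1 h water library was the lowest of the 8 at both loci, with the 6 h cold library close to it at the first.

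Both lower loci ranked first also turned on few lengths. Bradi5g17700.1 had 23 reads at 3 h and 357 at 1 h, 34.5-fold lower (22.6 to 55.1). Its 24 nt reads alone numbered 2 at 3 h and 347 at 1 h, 385-fold lower (106 to 3194). Bradi1g69010.1 had 8 reads at 3 h and 120 at 1 h, 33.3-fold lower (16.4 to 78.9), all of 15 to 17 nt at 1 h. In scaled reads Bradi1g69010.1 stood at 3.60 at 3 h and 120 at 1 h in water, 199 in the unstressed library and 3.27 to 7.56 in the other 5. The 1 h water and unstressed libraries were the high ones at this locus.

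Strong concentration in 1 length was more frequent among called loci than among those not called, though not at the typical higher locus. In the library where a locus had more scaled reads, 1 length held 80% or more of its reads at 71 of the 267 higher loci (26.6%) and at 111 of the 273 lower loci (40.7%), against 800 of the 6394 loci not called (12.5%). The leading length held a median of 45.6% of reads at the higher loci, 73.6% at the lower loci and 48.1% at those not called. With 100 or more reads in that library, 80% or more was reached at 37.9% of 153 higher, 44.7% of 141 lower and 15.4% of 1235 loci not called. The medians there were 72.4%, 78.5% and 54.5%. The lengths differed between the lists, but the higher loci were read at 3 h and the lower loci at 1 h. Of 2128 loci with 40 or more reads in each library, 405 were led by 15 to 19 nt at 3 h. At 1 h the number was 290. How far the library read sets the contrast between the lists was not tested. Of the 71 higher loci, 38 were led by 24 nt, 23 by 15 nt and 9 by 21 nt. Among the 111 in the lower list, 24 nt led at 87, 21 nt at 21 and 15 nt at 3. Counting loci at any concentration, a length of 15 to 19 nt led at 149 of the 267 higher loci (55.8%), at 38 of the 273 lower loci (13.9%) and at 1467 of the 6394 not called (22.9%). Where such a length led, it held a median of 19.4% of reads at the higher loci, 10.4% at the lower loci and 16.7% at those not called, so a spread over many lengths was common to all 3.

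Over all reads, short lengths took a larger share at 3 h and long lengths a smaller one. Reads of 15 to 19 nt were 33.0% at 3 h (95% interval 33.0% to 33.1%) and 21.9% at 1 h (21.8% to 21.9%). Reads of 30 to 41 nt were 20.9% at 3 h (20.9% to 21%) and 37.7% at 1 h (37.7% to 37.8%). The single lengths that lost most were 31 nt, with 7.59% at 3 h and 15.6% at 1 h, and 30 nt, with 5.6% and 10.6%. Reads of 20 nt were 9.95% at 3 h and 8.02% at 1 h, and reads of 21 nt 6.55% and 5.03%. Reads of 22, 23, 24 and 25 to 29 nt differed by 0.168 to 0.745 percentage points, all higher at 3 h.

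Many of the long reads came from 1 pair of loci that can hardly be told apart. Bradi2g13080.1 had 266399 reads at 3 h and 327797 at 1 h, 2.73-fold lower (2.72 to 2.75), and Bradi3g27270.1 had 262957 and 324667, 2.74-fold lower (2.73 to 2.76). Up to 98.9% of the reads of Bradi2g13080.1 and 100% of those of Bradi3g27270.1 can be shared, by their counts per length. Together they held 57.3% of the 30 to 41 nt reads at 3 h and 76.4% at 1 h, with any shared read counted at both. With only Bradi3g27270.1 left out, reads of 30 to 41 nt were 16.2% of all reads at 3 h and 28.0% at 1 h. With both left out, reads of 30 to 41 nt were 10.5% at 3 h and 13.4% at 1 h, and reads of 15 to 19 nt 38.3% and 32.3%, so both differences kept their direction and were smaller. The 24 nt share changed direction, to 12.1% at 3 h and 14.3% at 1 h.

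Outside the abundant loci, 24 nt reads had a smaller share at 3 h and short reads a larger one. Without the 100 most abundant loci, 24 nt reads were 34.7% at 3 h (34.6% to 34.8%) and 42.2% at 1 h (42.1% to 42.4%). Reads of 15 to 19 nt were 24.4% at 3 h and 16.5% at 1 h, and reads of 30 to 41 nt 6.16% and 8.35%. The 21 nt share was close, 11.6% at 3 h and 11% at 1 h. The ratio of 24 nt to 21 nt reads there was 2.99 at 3 h (2.97 to 3.02) and 3.85 at 1 h (3.81 to 3.89). The 22 nt share turned on a few loci. Without the 10 most abundant loci it was 8.09% at 3 h and 12% at 1 h, and without the 100 most abundant 3.57% and 3.31%. Bradi4g12040.1 and Bradi4g12040.2, transcripts of 1 gene with the same reads, each had 27933 reads of 22 nt at 3 h and 25312 at 1 h, 2.01-fold lower (1.98 to 2.05, not called). These 2 identifiers were named after their values were seen.

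**Figure D2:**
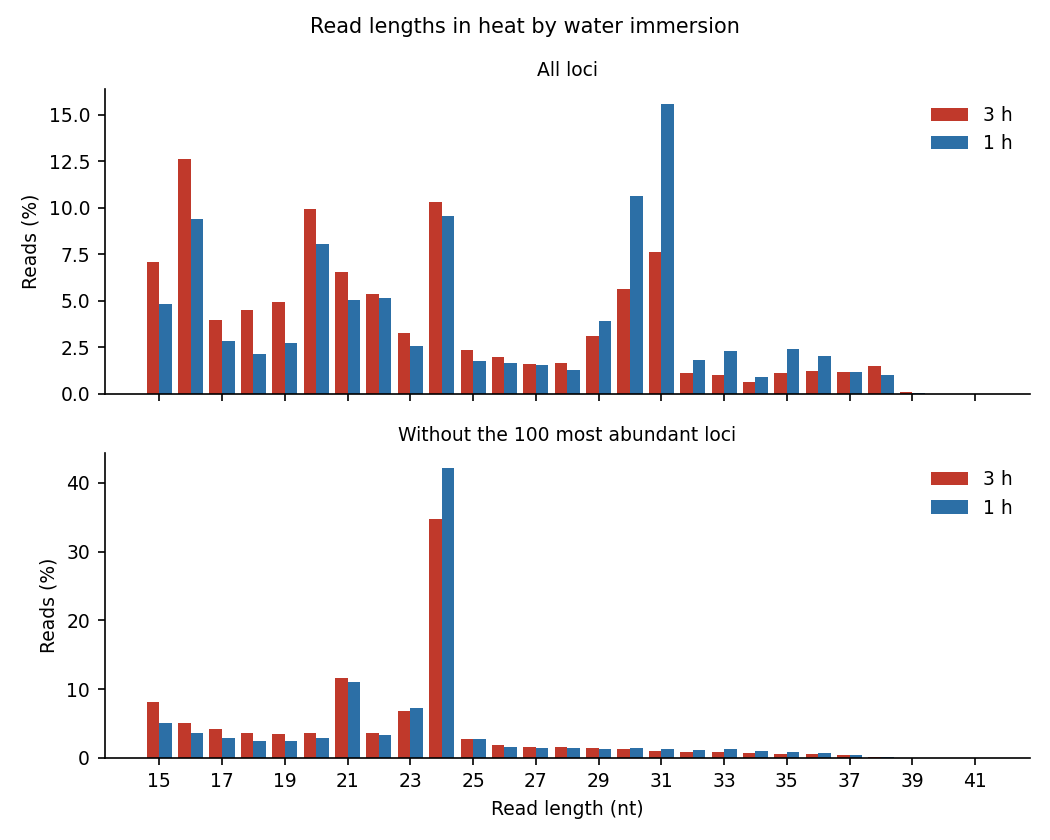
Bars give the percentage of 3' UTR reads at each length from 15 to 41 nt in the 3 h and 1 h water libraries, over all loci (top) and without the 100 most abundant loci (bottom). In the top panel 31 nt stands at 7.59% at 3 h and 15.6% at 1 h, and in the bottom panel 24 nt stands at 34.7% and 42.2%.

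Reads of each length class were then compared locus by locus, at loci with 40 or more such reads, with the scaling of all lengths kept. The short class leaned upward. Of 1013 loci tested at 15 to 19 nt, 128 were higher at 3 h (12.6%) and 22 lower (2.17%), with a median log2 fold of 0.63. The long class leaned downward. Of 304 loci tested at 30 to 41 nt, 10 were higher (3.29%) and 75 lower (24.7%), with a median log2 fold of -0.81. The medians kept these directions under total scaling, 0.95 and -0.49. With reads scaled within each class the leans were not kept, with 64 loci higher and 74 lower at 15 to 19 nt and 32 higher and 17 lower at 30 to 41 nt.

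The class of 24 nt leaned downward by less. Of 2839 loci, 96 were higher (3.38%) and 236 lower (8.31%), and 1802 of the 2839 had a fold below 1. The median log2 fold at 24 nt was -0.23, but 0.09 under total scaling, where 118 loci were higher and 175 lower. Loci at 21 nt moved in both directions more often than those at 24 nt. Of 725 loci, 111 were higher (15.3%) and 86 lower (11.9%), with a median log2 fold of 0.20. At the 448 loci tested at both lengths, the log2 fold was larger at 21 nt than at 24 nt at 292 (65.2%), when both lengths have the same scaling. With each length scaled within its class, an alternative added after seeing the data, it was larger at 21 nt at 211 (47.1%), so the lean was not kept. At 11 of these loci 21 nt reads were higher while 24 nt reads were lower, and at 3 loci the reverse was seen.

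The smaller classes gave fewer tests. At 20 nt 18 of 126 loci were higher (14.3%) and 9 lower (7.14%), at 22 nt 12 of 125 were higher (9.60%) and 14 lower (11.2%), and at 23 nt 22 of 303 were higher (7.26%) and 15 lower (4.95%). At 25 to 29 nt 14 of 377 loci were higher (3.71%) and 34 lower (9.02%). A single gene weighed on several of these counts. Bradi1g12790 had 7 identifiers with shared reads, and they made up 7 of the 10 loci higher at 30 to 41 nt, 7 of the 14 at 25 to 29 nt, 7 of the 12 at 22 nt and 7 of the 18 at 20 nt.

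At most loci heading the classes of 21 to 24 nt, reads of that length were nearly absent in 1 of the 2 libraries. Bradi3g57410.1 had 268 reads of 21 nt at 3 h and 1 at 1 h, 121-fold higher (21.5 to 4784), while its 24 nt reads numbered 16 and 13. Bradi4g01040.1 had 0 reads of 21 nt at 3 h and 91 at 1 h, 67.4-fold lower with a floor of 3 counts at 3 h (from 53.7 up). Bradi2g15310.1 had 309 reads of 24 nt at 3 h and 1 at 1 h, 139-fold higher (24.8 to 5513), out of 313 and 10 reads of all lengths. At 23 nt Bradi2g41110.1 had 86 reads at 3 h and 0 at 1 h, while its 24 nt reads numbered 90 and 60. With a floor of 3 counts at 1 h its 23 nt reads were 12.9-fold higher (from 10.3 up). Bradi5g14270.1 had 55 reads of 23 nt at 3 h and 170 at 1 h, 6.86-fold lower (5.04 to 9.48), beside 249 and 206 reads of 24 nt. At 22 nt Bradi1g16020.1 had 70 reads at 3 h and 2 at 1 h, 15.8-fold higher (4.20 to 133), and Bradi1g12300.1 had 0 and 42. The latter was 31.1-fold lower with a floor of 3 counts at 3 h (from 24.2 up).

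At the gene Bradi1g12790 the rise was spread over many lengths. Bradi1g12790.1 had 849 reads at 3 h and 31 at 1 h. Its 24 nt reads, 23 at 3 h and 4 at 1 h, were too few to be tested. Its reads at 3 h were spread, with 43.6% of 15 to 19 nt, 20.4% of 25 to 29 nt, 7.89% of 30 to 41 nt and 2.71% of 24 nt. At 30 to 41 nt it was 15.1-fold higher (4.02 to 127), with 67 reads at 3 h and 2 at 1 h. The transcript Bradi1g12790.4 had 65 reads of 20 nt at 3 h and 0 at 1 h, 9.76-fold higher with a floor of 3 counts at 1 h (from 7.71 up). Bradi1g12790.7 had 177 reads of 25 to 29 nt at 3 h and 5 at 1 h, 15.9-fold higher (6.70 to 49.7). In scaled reads Bradi1g12790.1 stood at 382 at 3 h and 31.0 at 1 h in water, and between 13.7 and 112 in the other 6 libraries, so the 3 h water library was the highest of the 8.

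At the head of the lower lists of the long classes were loci read almost only in heat. Bradi5g16970.1 had 99 reads at 3 h and 276 at 1 h. Reads of 30 to 41 nt at this locus numbered 6 at 3 h and 72 at 1 h, 26.7-fold lower (11.7 to 75). It had 575 and 524 reads in heat in air at 3 h and 1 h, 3 under salt and 0 in the unstressed and both cold libraries. Bradi2g49660.1 had 350 reads at 3 h and 830 at 1 h, with 61 and 217 of 25 to 29 nt, 7.90-fold lower at that class (5.92 to 10.7). It had 2266 and 2455 reads in heat in air and 0 to 13 in the 4 libraries without heat. At both loci the shorter lengths held more of what remained. Reads of 15 to 19 nt were 40.4% at 3 h and 23.2% at 1 h at Bradi5g16970.1, and 38.9% and 23.1% at Bradi2g49660.1.

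Loci of this kind were counted with the libraries of heat in air, which enter no call. A mean of scaled reads in the 2 air libraries at least 10 times that of the cold and unstressed libraries was found at 36 of the 273 lower loci (13.2%, from 27 genes), at 11 of the 267 higher loci (4.12%, from 7 genes) and at 128 of the 6394 loci not called (2.00%). A run of 4 genes that follow each other among the genes tested, if gene numbers are taken as order along the chromosome, was in the lower list. It was the only run of 3 or more neighbouring genes called in 1 direction. Where 2 neighbouring genes were both called, both were higher in 10 cases, both lower in 9 and of opposite call in 15. Under total scaling 2 of the 4 loci of the run were called. Bradi3g39590.1 had 505 reads at 3 h and 631 at 1 h, 2.77-fold lower (2.46 to 3.13), and Bradi3g39600.1 had 248 and 283, 2.53-fold lower (2.13 to 3.02). These are the 2 not called under total scaling, at 2.23-fold (1.98 to 2.51) and 2.03-fold (1.71 to 2.42). Bradi3g39620.1 had 369 reads at 3 h and 819 at 1 h, 4.93-fold lower (4.35 to 5.59), and also headed the lower list at 20 nt, with 18 reads at 3 h and 40 at 1 h, 4.94-fold lower (2.76 to 9.15). Bradi3g39630.1 had 537 reads at 3 h and 964 at 1 h, 3.99-fold lower (3.58 to 4.44). In scaled reads the 4 loci stood at 143 to 937 in heat in air, 8.63 to 60.8 in cold, 20.5 to 192 under salt and 8.29 to 24.9 in the unstressed library. Bradi3g39590.1 under salt, at 192, was close to its 227 at 3 h in water. This run was picked after its values were seen, and whether near-identical copies share reads there was not tested.

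**Figure D3:**
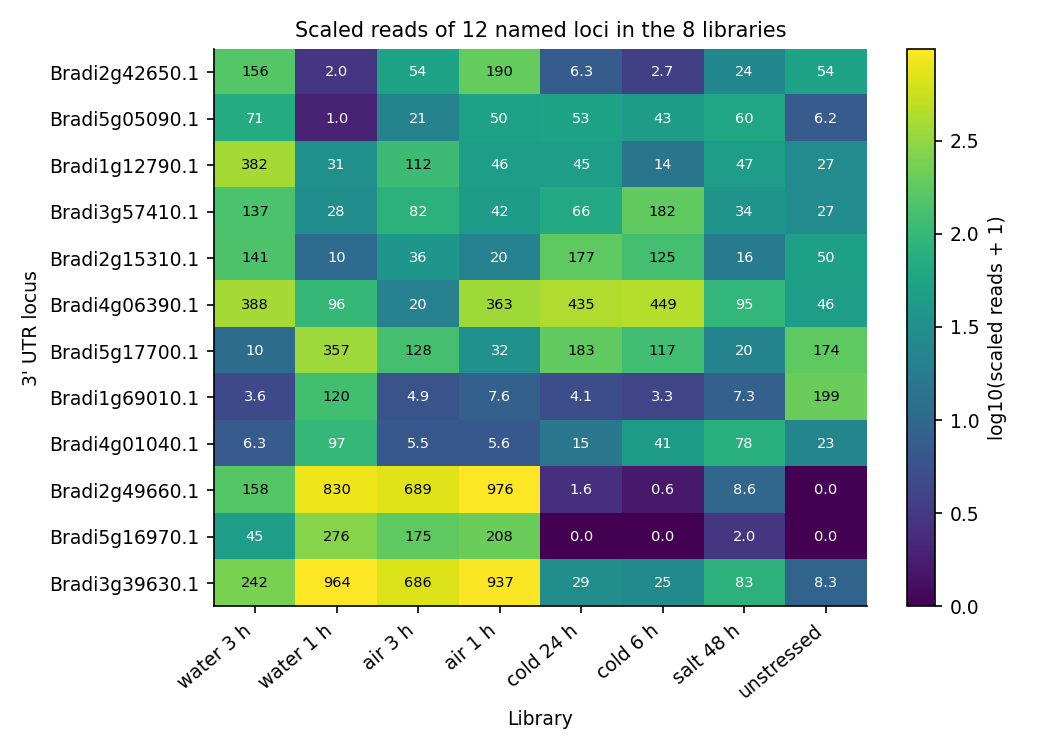
Scaled reads of 12 named loci (rows) in the 8 libraries (columns, 3 h water first). Color is log10 of scaled reads plus 1 and the printed number is the scaled value, with the 1 h water library as the unit. The upper 6 rows are higher at 3 h than at 1 h in water and the lower 6 are lower, and the last 3 rows stand at 0 to 83.3 in the 4 libraries without heat.

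The lengths of the reads of a locus can be compared with no scaling. At 2128 loci with 40 or more reads in each library, the share of a length class was called different where the 2 exact 95% intervals did not overlap and the shares lay 20 or more percentage points apart. At least 1 class differed at 436 loci of 300 genes (20.5%). They included 22 of the 49 tested loci called higher in total reads (44.9%), 79 of the 151 called lower (52.3%) and 335 of the 1928 not called (17.4%). The 24 nt share was lost at 199 loci (9.35%) and gained at 74 (3.48%). The 15 to 19 nt share was gained at 71 (3.34%) and lost at 11 (0.517%). The 21 nt share was gained at 103 (4.84%) and lost at 90 (4.23%), and the 30 to 41 nt share was gained at 0 and lost at 24 (1.13%). The 23 nt share was gained at 31 (1.46%) and lost at 24 (1.13%). Few loci were called in the share of 20 nt, with 4 gained (0.188%) and 4 lost (0.188%), of 22 nt, with 7 (0.329%) and 1 (0.0470%), or of 25 to 29 nt, with 7 (0.329%) and 1 (0.0470%). Median shares at 3 h and 1 h were 2.03% and 1.40% at 20 nt, 2.63% and 2.14% at 22 nt and 4.17% and 3.53% at 25 to 29 nt. The rule allows no loss of a class whose share was below 20% at 1 h, so few calls in these classes say little about change. The median 24 nt share over the 2128 loci was 46.6% at 3 h and 53.3% at 1 h, and it was lower at 3 h at 1278 loci and higher at 835. The median difference within a locus was smaller, -1.77 percentage points.

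Exchanges between 21 and 24 nt were the most common among those called by this rule. The 21 nt share was gained and the 24 nt share lost at 75 loci, and the reverse was seen at 38. The 24 nt share was lost with a gain of 23 nt at 26 loci and with a gain of 15 to 19 nt at 22. The most frequent length of a locus was the same in both libraries at 1587 loci (74.6%). It was 24 nt at 1 h and 21 nt at 3 h at 86 loci and 21 nt at 1 h and 24 nt at 3 h at 62. A length of 15 to 19 nt led at 405 loci at 3 h (19%) and at 290 at 1 h (13.6%).

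Some of the widest changes in length make-up were close to complete. At Bradi4g06390.1, 24 nt reads were 802 of 862 at 3 h, 93.0% (91.1% to 94.6%), and 10 of 96 at 1 h, 10.4% (5.11% to 18.3%). Its 21 nt reads were 6 of 862 at 3 h, 0.696% (0.256% to 1.51%), and 70 of 96 at 1 h, 72.9% (62.9% to 81.5%). This locus was 4.04-fold higher at 3 h in total reads. At Bradi1g49970.1, 24 nt reads were 4 of 52 at 3 h, 7.69% (2.14% to 18.5%), and 109 of 120 at 1 h, 90.8% (84.2% to 95.3%), and reads of 21 and 20 nt led at 3 h with 20 and 17. Bradi3g05920.1 changed little in number, with 367 reads at 3 h and 229 at 1 h, 0.722 times the 1 h level after scaling. Its reads of 15 to 19 nt were 239 at 3 h, 65.1% (60% to 70.0%), and 6 at 1 h, 2.62% (0.967% to 5.62%), and 234 of the 239 were 15 nt long.

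**Figure D4:**
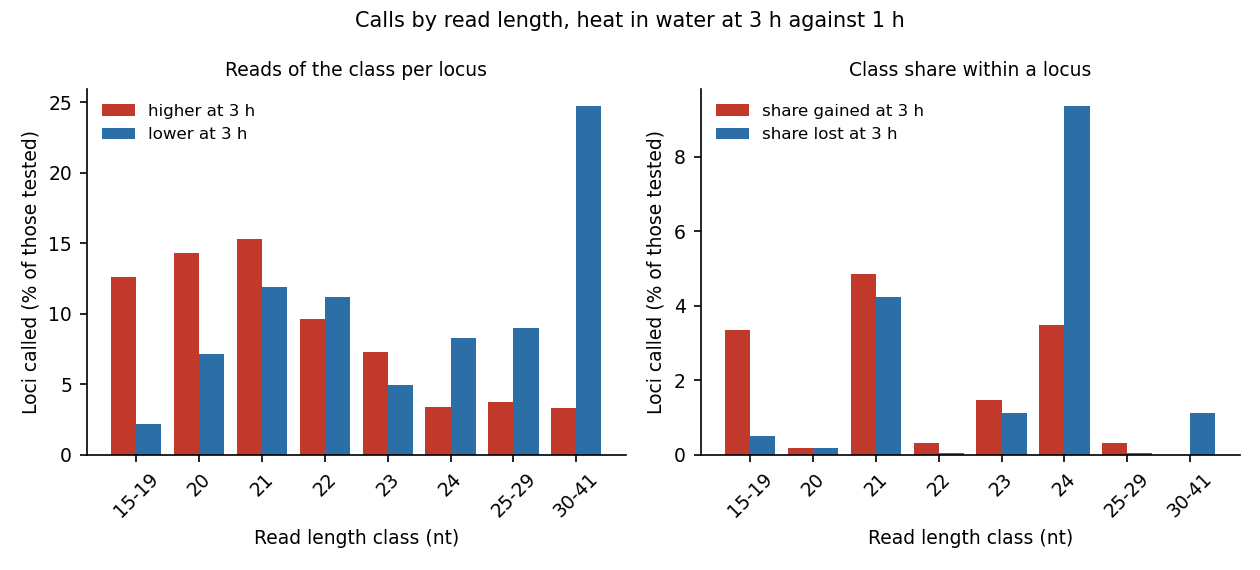
Percentage of loci called, by read length class. Left, loci whose reads of the class were higher or lower at 3 h than at 1 h, and right, loci whose share of the class was gained or lost at 3 h. At 30 to 41 nt 24.7% of loci were lower, and within loci the 24 nt share was lost at 9.35% and gained at 3.48%.

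The 10 most abundant loci were described one by one because they carry most reads. Bradi4g27190.1, the largest, had 587093 reads at 3 h and 259429 at 1 h, 1.02 times the 1 h level after scaling (1.01 to 1.02). Bradi5g00200.1 had 400403 and 120079, 1.5-fold higher (1.49 to 1.51), with 33.7% of reads of 15 to 19 nt at 3 h and 25% at 1 h. Bradi2g06470.1 had 173187 reads at 3 h and 31481 at 1 h, 2.48-fold higher (2.45 to 2.51), of which 78.3% and 77.6% were 16 nt. Of these 3 loci only the last was called.

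Bradi3g13900.1 had 71008 reads at 3 h and 11239 at 1 h, 2.84-fold higher (2.79 to 2.90). Its profile moved toward short reads as well. Reads of 15 to 19 nt, mainly 18 and 19 nt, were 73.3% at 3 h and 47.7% at 1 h, while reads of 30 to 41 nt were 17.7% and 39.8%. Bradi1g05760.1 had 33736 reads at 3 h and 36582 at 1 h, 2.41-fold lower (2.37 to 2.44), led by 16 nt reads in both libraries with 32.0% and 45.7%. Bradi1g05790.1 had 304408 and 164938 reads, 1.20-fold lower (1.20 to 1.21), with 58.5% and 57.7% of 20 nt.

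Bradi5g10760.1 had 141613 reads at 3 h and 81938 at 1 h, 1.29-fold lower (1.27 to 1.3), with 80.2% and 84.3% of 16 nt. Bradi4g19720.1 had 40813 and 21005, 1.14-fold lower (1.12 to 1.16). With the pair of long-read loci described above, 3 of the 10 were called lower, at 2.41-fold or more, 2 were called higher, and 5 lay within 1.5-fold. The directions of Bradi1g05790.1 and Bradi4g19720.1 were not kept under total scaling, where they were 1.04 and 1.09 times the 1 h level. The call of Bradi1g05760.1 was lost under total scaling and under 24 nt scaling, at 0.517 and 0.50 times the 1 h level.

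What length class leads a locus in the other 6 libraries went with how it differed here. The classes differ in width, so a wide class can lead where none of its single lengths does. Each member was given the class with the highest mean share over the unstressed, salt, cold and heat in air libraries, so that the class rests on libraries outside the comparison. All 6934 members had 10 or more reads there. Among 1305 loci led by 15 to 19 nt, 104 were higher at 3 h (7.97%) and 36 lower (2.76%), with a median log2 fold of 0.37. Among 829 led by 25 to 41 nt, 55 were higher (6.63%) and 13 lower (1.57%), with a median of 0.34. Among 3724 led by 24 nt, 53 were higher (1.42%) and 154 lower (4.14%), with a median of -0.11, and among 1076 led by 20 to 23 nt, 55 were higher (5.11%) and 70 lower (6.51%), with a median of -0.09. Under total scaling the medians were 0.69, 0.66, 0.20 and 0.23 in the same order, so the sign of the last 2 was not kept.

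The called loci were also placed among the other libraries by scaled reads. Of the 267 higher loci, 137 were above all 6 other libraries at 3 h, and 99 were below all 6 at 1 h. Of the 273 lower loci, 100 were below all 6 at 3 h, and 142 were above all 6 at 1 h. No such share over all members stands beside these counts, so they cannot be read as a trait of the lists. For the higher loci the median log2 level relative to the 1 h water library was 2.39 in the 3 h water library and 0.59 to 1.27 in the other 6. For the lower loci it was -2.07 in the 3 h water library and -1.60 to -1.10 in the other 6. All of these levels are relative to the 1 h water library, which chose the loci, so they place the loci and test nothing.

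Heat in air was sampled at the same times and temperature and shares no library with heat in water. There, 10604 loci had 40 or more reads summed over the 2 air libraries, and 6748 loci were tested in both comparisons. Across these 6748 loci the log2 folds of water and air had a Pearson correlation of 0.13 and a Spearman correlation of 0.14, given as a description since loci of a gene share reads and most folds are within counting error. Of the loci higher at 3 h in water, 30 were also higher in air, 12.2% of the 245 in the water list and 17.9% of the 168 in the air list. Of the loci lower in water, 64 were lower in air, 24.0% of 267 and 18.7% of 342. Opposite calls were found at 33 loci higher in water and lower in air (13.5% of 245 and 9.65% of 342) and at 19 lower in water and higher in air (7.12% of 267 and 11.3% of 168). In heat in air over all its loci, 251 were higher (2.37%) and 432 lower (4.07%) at 3 h. Under total scaling in both comparisons the 4 counts were 93, 25, 17 and 33 in the order given.

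Loci called in both show the 2 kinds side by side. Bradi2g12230.1 was higher in both, with 634 reads at 3 h and 43 at 1 h in water, 6.64-fold higher (4.87 to 9.27), and 753 and 110 in air, 5.14-fold higher (4.20 to 6.34). It was led by 24 nt reads in both water libraries, with 474 and 38. Bradi1g13830.2 was also higher in both, with 58 reads and 2 in water, 13.1-fold higher (3.46 to 110), and 40 and 4 in air, 7.51-fold higher (2.71 to 28.9). Bradi3g01980.1 was lower in both, with 45 reads at 3 h and 141 at 1 h in water, 6.96-fold lower (4.94 to 9.96), and 21 and 116 in air, 7.36-fold lower (4.6 to 12.3). Bradi3g01980.2 is a transcript of the same gene with the same counts. The 24 nt reads of Bradi3g01980.1 in water were 4 of 45 at 3 h and 119 of 141 at 1 h.

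Opposite calls reached similar folds. Bradi4g28000.1 had 92 reads at 3 h and 0 at 1 h in water, at least 13.8-fold higher against a floor of 3 counts, and 8 and 126 in air, 21-fold lower (10.3 to 49.7). Its transcript Bradi4g28000.2 had 91 and 0 in water and the same reads in air. In water 82 of the 92 reads were 15 nt long. Bradi1g67680.1 was the other way, with 169 reads at 3 h and 388 at 1 h in water, 5.10-fold lower (4.25 to 6.15), and 623 and 43 in air, 10.9-fold higher (7.98 to 15.2), and 24 nt reads were 84.6% and 94.1% of its reads in water. Bradi2g23430.1 had 27 reads and 70 in water, 5.76-fold lower (3.65 to 9.34), and 227 and 22 in air, 7.75-fold higher (4.99 to 12.6).

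**Figure D5:**
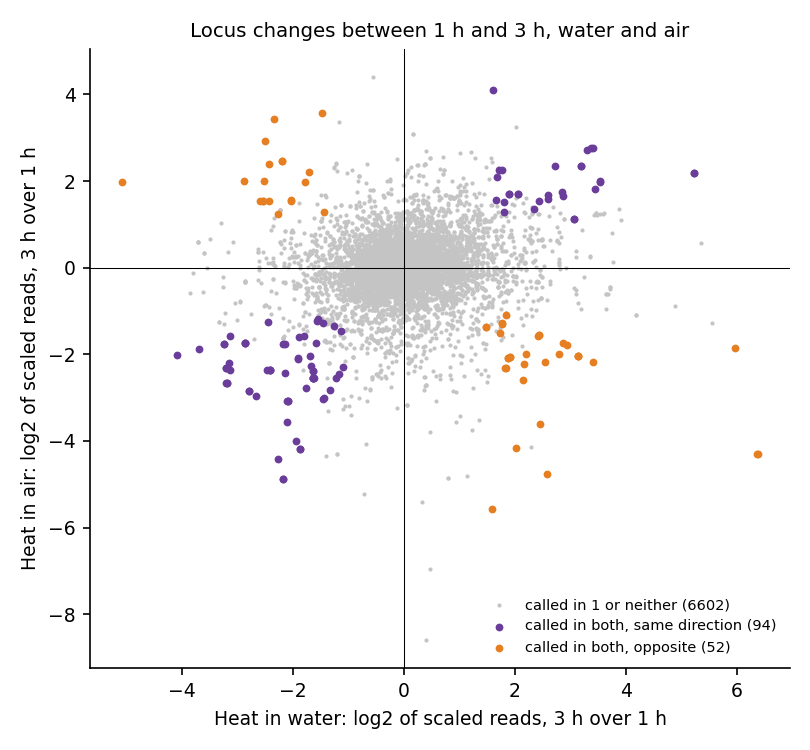
Each point is 1 of 6748 loci tested in both comparisons, placed by its log2 ratio of scaled reads at 3 h over 1 h in water (horizontal) and in air (vertical). The 94 loci called in both in the same direction are purple, the 52 called in opposite directions orange, and the bulk forms a round cloud around 0.

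The length classes differed between water and air as well. Per locus, 128 of 1013 loci were higher and 22 lower at 15 to 19 nt in water, while in air 113 of 2233 were higher (5.06%) and 182 lower (8.15%). At 24 nt 96 loci were higher and 236 lower in water, and 172 of 4732 were higher (3.63%) and 231 lower (4.88%) in air, with medians of -0.23 in water and 0.09 in air on the log2 scale. At 30 to 41 nt the direction was shared on this scaling, with medians of -0.81 in water and -0.28 in air. There 65 of 457 loci were lower in air (14.2%). These values per locus rest on the scaling. Under total scaling the water medians were 0.95 at 15 to 19 nt, 0.09 at 24 nt and -0.49 at 30 to 41 nt. In air the 3 h library was 1.33 times the size of the 1 h library by the trimmed mean and 0.871 times by total reads. Total scaling would thus raise every log2 fold in air, by enough to turn the air medians at 15 to 19 nt (-0.04) and 30 to 41 nt (-0.28) positive. The direction shared at 30 to 41 nt would then not be kept, and at 15 to 19 nt both medians would be positive. Over all loci, reads of 30 to 41 nt were 20.9% at 3 h and 37.7% at 1 h in water, and 13.4% and 29.8% in air. Reads of 15 to 19 nt had a larger share at 3 h in both media, by 11.1 percentage points in water and 7.79 in air, and so did reads of 24 nt, by 0.745 and 5.71. With 1 library per time in each medium, these differences between water and air were not tested.

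Calls were spread over the genome. With 1 identifier per gene, and the digit after the species prefix read as the chromosome, 2.77% to 4.37% of genes were higher and 3.23% to 4.32% lower on the 5 chromosomes, against 3.70% and 3.93% over all 4860 genes. Transcripts of 1 gene mostly gave the same answer, and many hold the same reads. Of 1285 genes with more than 1 identifier among the members, 110 had a call, 97 of them with every identifier called in the same direction, and 1 had identifiers called in both directions. There were 919 sets of loci with equal counts at every length, holding 2117 loci, and 2 of these sets joined different genes.

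The counts themselves have an uneven pattern. Entries of exactly 2 reads outnumbered entries of 1 read 2.55 times at 3 h and 1.70 times at 1 h. Every entry was even at 410 of the 6934 loci (5.91%), and 289 of these had 10 or more entries. Whether reads were counted more than once there was not tested. Of the 410 loci, 40 were called, and with their counts divided by 2 the totals were 245 higher and 270 lower. Even entries were not limited to them, at 61.8% of all entries of the members, and with every count divided by 2 the totals were 148 higher and 210 lower.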

How the data were processed

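Small RNA libraries from leaves were made with the Small RNA v1.5 and TruSeq kits and sequenced on a Genome Analyzer II, per the labels' protocols. Which library had which kit is not given in the sources used here. The submitters' processing notes name CASAVA, Bowtie 0.12.7 and bedtools 2.10.0. The deposited files give raw read counts per 3' UTR identifier and read length, from 15 to 41 nt, not normalized. No source used here gives the genome build or how reads matching several places were treated.

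Counts were read with Python 3.11.15 and pandas 2.3.3 and scaled by a trimmed mean of log ratios (30% of log ratios and 5% of levels trimmed). The 3 h and 1 h water libraries were scaled directly to each other, and edgeR 4.0.16 in R 4.3.3 gave the same ratio of 2.22. Folds have exact Clopper-Pearson 95% intervals from scipy 1.17.1, which cover counting error only. A count of 0 was set to a floor of 3 counts per library for folds given with a floor. Intervals of such folds use the count of 0 and have no upper end. Log2 folds used a prior of 0.5 reads. The calling script was tested on simulated data. With 1 library per condition no p-value was computed.

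Named loci are, in each direction, the 2 whose nearer interval bound is most distant from a fold of 1, the first per direction in each length class, those with the widest gaps in length make-up, those called in both water and air whose weaker bound is most distant, and the 10 most abundant. The members and lists were chosen with earlier results of these data known. Gene lists and leaf markers were not run, since no identifier joined to the RefSeq table of assembly Brachypodium_distachyon_v3.0. Alternatives covered scaling, read minimums, call thresholds, length subsets and loci that share reads.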

Additional observations from a re-analysis of the deposited data

Results flagged for a closer look

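Several differences between 3 h and 1 h ran in opposite directions in water and in air, and none of these differences between the media was tested. Of the 6748 loci tested in both media, 33 were higher at 3 h in water and lower at 3 h in air. Another 19 were lower in water and higher in air. Over the same 6748 loci, 168 were higher and 342 lower in air. Calls in the same direction were found at 30 loci higher in both and 64 lower in both. Under total scaling the opposite calls numbered 17 and 33 in the same order, and those in the same direction 93 and 25. The 100 loci most abundant in the 2 water libraries were left out in both media, with no ranking made in air. Without them the 24 nt share differed by -7.48 percentage points at 3 h minus 1 h in water and by 3.22 in air. The 15 to 19 nt share without them differed by 7.89 points in water and by -0.905 in air. Over all loci the signs were not opposed, with 24 nt at 0.745 points in water and 5.71 in air and 15 to 19 nt at 11.1 and 7.79. The ratio of 24 nt to 21 nt reads over all loci was 1.57 at 3 h and 1.90 at 1 h in water, and 2.40 at 3 h and 1.86 at 1 h in air.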

How the results depend on the processing

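No paired analysis was possible because each condition has 1 library, and leaving out a replicate could not be run for the same reason. The cause of each change below was not tested. Against 267 loci higher and 273 lower, scaling by total reads gave 434 and 181, an interval beyond 4-fold 51 and 75, an interval that excludes no change 1352 and 1344, and a minimum of 200 reads 111 and 95. The counts higher and lower were 405 and 199 with 24 nt scaling, 408 and 346 with 10 or more reads, 408 and 396 with no filter, 148 and 210 with all counts divided by 2, 146 and 288 with 20 to 24 nt alone and 151 and 300 without 15 to 19 nt. Per length class, total scaling gave 207 higher and 13 lower at 15 to 19 nt, 31 and 2 at 20 nt, 5 lower at 22 nt and 33 higher at 25 to 29 nt. Scaling within the class gave 64 higher and 74 lower at 15 to 19 nt and 32 and 17 at 30 to 41 nt. Counts divided by 2 gave 82 higher at 15 to 19 nt, 11 higher and 3 lower at 20 nt, 4 and 5 at 22 nt, 7 higher at 23 nt and 7 higher at 25 to 29 nt.

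Differences in share (3 h minus 1 h, percentage points) are given for 15 to 19, 20, 21, 22, 23, 24, 25 to 29 and 30 to 41 nt in that order, against 11.1, 1.93, 1.52, 0.168, 0.734, 0.745, 0.562 and -16.8. Without the 10 most abundant loci they were 7.40, 1.55, 1.67, -3.95, -0.159, -3.65, 0.596 and -3.46. Without the 100 most abundant they were 7.89, 0.738, 0.641, 0.253, -0.499, -7.48, 0.651 and -2.19. With 1 locus per set of equal counts, leaving out 23 nt, they were 11.3, 2.00, 1.44, 0.667, 0.816, 0.50 and -17.5. Without Bradi3g27270.1, chosen after seeing the data, they were 9.39, 1.12, 1.06, -0.419, 0.508, -0.310, 0.509 and -11.9. The medians over loci of the 2 libraries differed by 2.71, 0.633, 0.874, 0.489, 0.354, -6.72, 0.637 and 0.433, while the median differences within a locus were 2.48, 0.122, 0.934, 0.118, 0.168, -1.77, 0.0641 and 0. At 30 to 41 nt the share was lower at 3 h at 900 loci and higher at 575.

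Length make-up differed at 436 loci, at 693 with a gap of 10 points, at 239 with 30 points and at 108 of 653 with 100 reads in each library. The loci higher in both media, 30 in the report, numbered 93 with total scaling, 13 with 200 or more reads and 17 with 1 identifier per gene. Those lower in both, 64, numbered 25, 24 and 38. Those higher in water and lower in air, 33, numbered 17 with total scaling and 16 with 200 or more reads, and those lower in water and higher in air, 19, numbered 33 with total scaling. Bradi1g05790.1 turned to 1.04 times the 1 h level with total scaling, and Bradi4g19720.1 to 1.09 with total scaling and 1.05 with 24 nt scaling. Bradi1g05760.1 was no longer called under either, at 0.517 and 0.50 times the 1 h level.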
